A study of Mus musculus with 32 samples.

Results

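The clustered replication-dependent histone genes were taken as the protein-coding genes of the GENCODE M21 annotation of the mouse genome (mm10) whose symbol starts with Hist1h, Hist2h, Hist3h or Hist4h, which gave 67 of 21951 protein-coding genes. They comprised 6 genes for the linker histone H1, 18 for H2A, 18 for H2B, 12 for H3 and 13 for H4. The Hist1 cluster on chromosome 13 (chr13:21715763-23934851) held 54 of them, the Hist2 cluster on chromosome 3 (chr3:96219865-96270132) held 10, the Hist3 cluster on chromosome 11 (chr11:58948920-58956830) held 2, and Hist4h4 lay alone on chromosome 6 (chr6:136801553-136804415). In 66 of the 67 genes the shortest annotated model was a single exon without introns.

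Replication-dependent histone genes supply the histones that package newly copied DNA, and they are expressed mainly in S phase. Their mRNAs end in a stem-loop bound by SLBP instead of a poly(A) tail, and their transcription depends on NPAT, which gathers with the gene clusters in nuclear histone locus bodies. Many pairs of H2A and H2B genes lie head to head and share a promoter. Cycling pre-B cells, such as the line used here, have a continuous demand for these histones, and Ikaros (IKZF1), a zinc finger factor of lymphocytes, slows the cycle of pre-B cells.

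The study asked how newly arriving Ikaros affects recruitment of CHD4 and the level of H3K27ac in pre-B cells. All libraries came from B3 cells, a mouse pre-B line derived from a lymphoma, into which HA-Ikaros-ERt2 had been introduced with a retrovirus that also encodes GFP. The cells were sorted for GFP, and the tagged Ikaros was expressed from the viral vector in this single line. The groups were untreated cells (0 h) and cells given 500 nM 4-hydroxytamoxifen for 30 min, 1 h or 2 h, with 2 libraries for each time and target. Chromatin immunoprecipitation sequencing (ChIP-seq) was directed at the HA tag, at CHD4 (the remodelling ATPase of the NuRD complex) and at H3K27ac, an acetylation of histone H3 at active promoters and enhancers. The HA antibody detects only the tagged Ikaros, and untreated cells carried the construct too, so the 0 h libraries measured what bound before the drug. Nothing in the labels says whether the 2 replicates came from separate cultures, so the spread between them may be technical.

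The deposited data were 1 peak list per library, 24 lists in all. A gene was counted as bound or marked in a library when a peak of that list lay within 1 kb of any of its transcription starts. A call in both replicates did not require their peaks to overlap, so paired ranks of a gene can come from separate peaks. The strength of a peak was taken as its percentile rank by fold enrichment within its own list, in which 100 is the strongest peak. Lists differ in length between times, so a rank orders a peak within its own library and a difference in rank between times is not a change in binding. Comparison promoters were the 9673 other protein-coding genes with an H3K27ac peak within 1 kb in both 0 h libraries. Because histone genes lie close together, 1148 of these with at least 2 other protein-coding starts within 10 kb were used as dense comparison promoters. Among the histone genes, 59 of 67 met that neighbour criterion, and the median was 3 neighbours against 0 for the comparison promoters. The 67 genes formed 55 promoter units, 43 of 1 gene and 12 of 2 genes whose starts lay within 500 bp, and members of a unit mostly share their peaks. A single peak counted for every gene within 1 kb, so genes here are not independent observations and no test was made over genes.

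Histone genes are also near copies of one another. In the window of 1 kb to each side of a start, a median of 19.5% of the 40-base stretches occurred more than once in the genome, ranging from 0% to 100%, and 10 genes exceeded 50%. The median was 0.204% for H1, 31.1% for H2A, 28.9% for H2B, 21.8% for H3 and 10.3% for H4. How reads from such stretches were placed is not stated by the sources used here, so peaks at the genes with high values could belong to a copy.

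The lists ranged from 5373 to 14874 peaks for Ikaros, 21468 to 33664 for H3K27ac and 2488 to 9593 for CHD4. Coverage recovered from the lists was 1.98 to 3.59 fragments per base for Ikaros and 3.74 to 4.34 for H3K27ac. It is unknown for CHD4. The pre-B label was checked against marker promoters, of which 8 of 8 pre-B markers, 0 of 4 T cell markers and 0 of 4 myeloid markers carried H3K27ac in all 8 libraries. Of 4 erythroid markers, Klf1 and Hbb-bs carried it as well, at ranks of 46.6 and 46.0 and of 40.5 and 28.3 in the 0 h libraries.

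The promoters of the histone classes differ in sequence, and 8 of them are printed here because they span strong and weak Ikaros peaks described further on. Each line gives the 150 bases before the RefSeq start (GRCm38.p6), 5′ to 3′ along the gene. Capitals mark matches on either strand to the TATA word TATAAA, the CCAAT box, the octamer ATTTGCAT that POU factors bind, the word GGGAA and the similar word TGGGA. The former is the core of sites that Ikaros prefers, and a T before it makes it overlap with the latter. The 4 H4 promoters, Hist1h4j (chr13:21734884-21735033, plus strand), Hist1h4f (chr13:23551669-23551818, minus strand), Hist1h4a (chr13:23761250-23761399, minus strand) and Hist4h4 (chr6:136804432-136804581, minus strand), read as follows.
Hist1h4j: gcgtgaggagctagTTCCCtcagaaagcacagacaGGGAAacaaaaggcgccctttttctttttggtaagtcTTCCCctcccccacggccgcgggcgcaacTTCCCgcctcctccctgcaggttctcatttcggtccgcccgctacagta
Hist1h4f: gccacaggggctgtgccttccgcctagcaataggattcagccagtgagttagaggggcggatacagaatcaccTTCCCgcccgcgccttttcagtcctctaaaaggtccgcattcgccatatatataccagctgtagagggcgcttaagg
Hist1h4a: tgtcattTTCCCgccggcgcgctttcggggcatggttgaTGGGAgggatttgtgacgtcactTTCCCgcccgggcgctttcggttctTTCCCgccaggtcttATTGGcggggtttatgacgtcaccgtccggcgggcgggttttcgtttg
Hist4h4: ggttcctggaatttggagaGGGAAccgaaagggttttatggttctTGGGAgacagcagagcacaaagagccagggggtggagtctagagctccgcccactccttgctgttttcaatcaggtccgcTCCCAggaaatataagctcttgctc

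The promoters of the H2B genes Hist1h2bq (chr13:21810200-21810349, minus strand) and Hist1h2bm (chr13:21721894-21722043, plus strand), of the H2A gene Hist3h2a (chr11:58954535-58954684, plus strand) and of the H1 gene Hist1h1c (chr13:23738657-23738806, plus strand) are shown beside them.
Hist1h2bq: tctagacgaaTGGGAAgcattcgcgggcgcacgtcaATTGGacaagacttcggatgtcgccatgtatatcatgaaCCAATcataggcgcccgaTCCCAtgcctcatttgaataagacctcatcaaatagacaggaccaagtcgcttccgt
Hist1h2bm: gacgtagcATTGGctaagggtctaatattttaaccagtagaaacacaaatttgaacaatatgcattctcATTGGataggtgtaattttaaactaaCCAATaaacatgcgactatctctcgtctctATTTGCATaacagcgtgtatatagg
Hist3h2a: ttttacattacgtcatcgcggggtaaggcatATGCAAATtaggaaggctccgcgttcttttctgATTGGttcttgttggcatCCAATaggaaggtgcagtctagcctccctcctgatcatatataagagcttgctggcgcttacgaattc
Hist1h1c: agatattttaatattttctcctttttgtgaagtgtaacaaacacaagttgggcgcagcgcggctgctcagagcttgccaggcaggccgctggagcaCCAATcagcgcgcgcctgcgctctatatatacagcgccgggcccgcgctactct

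RefSeq promoters were found for 61 of the 67 genes, 18 of them with the same start in both annotations and none more than 98 bp apart. In the 250 bases before the start, CCAAT was present in 82.0% of the 61 and in 33.8% of all 32851 promoters of the table. TATAAA was present in 45.9% against 12.4%, and ATTTGCAT in 21.3% against 1.60%. GGGAA was about as frequent as elsewhere, at 52.5% against 56.2%, and TGGGA was present in 44.3% against 55.1%. The classes differed from each other. GGGAA was found in 12 of 12 H4 promoters, 6 of 18 H2A, 8 of 16 H2B, 4 of 10 H3 and 2 of 5 H1 promoters. H4 stood at the other end for CCAAT, with 3 of 12 promoters against 18 of 18 H2A, 16 of 16 H2B, 8 of 10 H3 and 5 of 5 H1 promoters. The octamer occurred in 7 H2A and 6 H2B promoters and in none of the other classes. These are matches of letters and not sites of binding.

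H3K27ac covered nearly all clustered histone genes before induction and at each later time. In each of the 8 lists 64 of 67 genes had a peak, the same 64 throughout, which is 95.5%. Over all protein-coding genes 44.4% had a peak in both 0 h lists and 41.9% in all 8. The count depends on wide peaks that reach several starts. With each peak given only to the start nearest its summit it was 21 at 0 h, 31.3% against 86.3% of comparison promoters and 64.1% of the dense ones, and with peaks that contain a start 63, 94.0% against 88.4%. The 3 genes without a peak in any list were Hist3h2ba, Hist1h2ba and Hist1h2aa. The last 2 encode testis-specific variants of H2B and H2A and share a promoter at the edge of the Hist1 cluster. Hist1h1t, the testis-specific linker histone, counted as marked, but the summit of its peak lay 282 to 695 bp from the start of the H4 gene Hist1h4c and 1945 to 2358 bp from its own start. This peak, assigned to both genes, had ranks of 81.9 and 82.0 at 0 h, the lowest mean of the 64.

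The peaks over histone genes were among the strongest and widest of each list. The median rank of the marked histone genes was 98.5 and 98.1 in the 0 h libraries and 97.4 to 99.3 over all 8. The comparison promoters had medians of 71.2 to 81.7, the dense ones 74.5 to 84.0, and the strongest 10% of the comparison promoters 94.98 to 96.3. At 0 h the median rank exceeded that of the comparison promoters by 25.4 ± 2.22 points (SD, n = 2), larger than the spread between replicates. Against the dense promoters it was 21.9 ± 2.53 points. Only 21 to 26 distinct peaks per list accounted for the 64 genes. Their median width was 5730 to 8197 bp against 1499 to 1998 bp for peaks at comparison promoters. In 6 of the 8 lists 1 peak of 27876 to 29381 bp in the Hist1 cluster covered 9 histone genes, and it ranked between places 1 and 3 of its list by width. In the other lists, 0 h replicate 1 and 1 h replicate 2, no peak held more than 5.

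**Figure D1:**
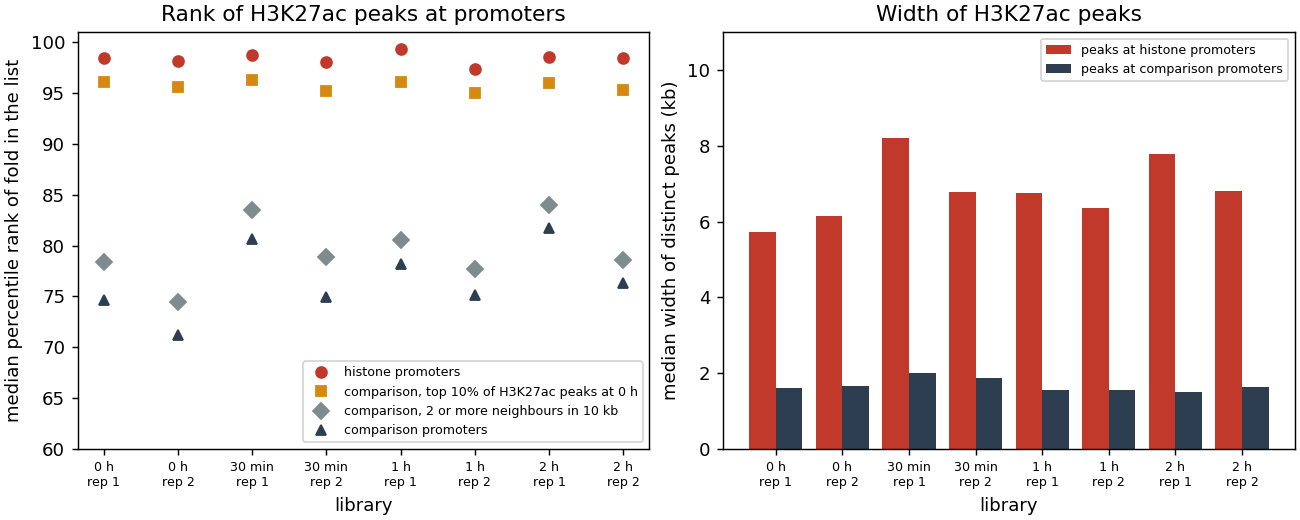
Left, median percentile rank of H3K27ac peaks in each of the 8 libraries for histone genes, all comparison promoters, the dense ones and the strongest 10%, on an axis that does not start at 0. Right, bars of the median width (kb) of distinct peaks at histone genes and at comparison promoters. The histone genes have median ranks of 97.4 to 99.3 against 71.2 to 81.7, and median widths of 5730 to 8197 bp against 1499 to 1998 bp.

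By mean rank at 0 h, the strongest H3K27ac peak over histone genes covered the H3 genes Hist1h3c and Hist1h3b, the H2B gene Hist1h2bb and the H2A gene Hist1h2ab, with a rank of 99.99 in both libraries. At Hist1h3c the deposited fold enrichment was 63.8 and 52.1 at 0 h, 81.0 and 40.3 at 30 min, 75.5 and 55.3 at 1 h, and 39.3 and 38.1 at 2 h. The 2 h values lay below both 0 h values, and the 30 min and 1 h values overlapped them. Folds fell in the lists as a whole, however, with a median log2 difference between 2 h and 0 h of −0.44 over all 9195 promoters marked in all 8 lists and of −0.41 over the 64 histone genes. Values were therefore compared after normalization between libraries, where Hist1h3c had a log2 difference of −0.36 ± 0.24 (SE) and an adjusted p of 0.601 by limma.

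After normalization no histone gene passed the test in any contrast. The limma fit called 1, 6 and 3 of 9195 promoters (0.0109%, 0.0653% and 0.0326%) at 30 min, 1 h and 2 h against 0 h, and 0 of the 64 histone genes in each. At an unadjusted p under 0.05 there were 4, 2 and 5 of the 64 histone genes, beside 635, 869 and 1018 of the 9195 promoters, a lower share of the histone genes in each contrast. The median log2 difference of the histone genes was −0.09, 0.00 and 0.00, against 0.01, 0.02 and 0.01 over all promoters tested. At 2 h the histone genes ranged from −0.68 to 0.83, with 32 of 64 above 0. Quantile normalization sets this centre. With folds as deposited 8 of 64 lay above 0, in a range of −1.01 to 0.46. That scaling called 2, 23 and 148 of the 9195 promoters at the 3 times, 145 of the 148 lower at 2 h, and again 0 histone genes. The top of that range, chosen after its values were seen, was the peak shared by the linker histone gene Hist1h1e and the H2B gene Hist1h2be. Its fold was 27.5 and 20.6 at 0 h, 36.9 and 31.3 at 30 min, 42.8 and 16.3 at 1 h, and 32.5 and 33.0 at 2 h, so that both 2 h values lay above both 0 h values. The log2 difference at 2 h was 0.83 ± 0.29 (SE) with an adjusted p of 0.309 by limma. On simulated lists of 9195 promoters the same fit recovered 0%, 34% and 95.5% of log2 differences of 0.5, 1 and 2, so smaller shifts at single genes were not detectable here.

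Tagged Ikaros was called at few histone genes before the drug and at many from 1 h on. At 0 h 2 and 14 of 67 genes had an Ikaros peak, 2.99% and 20.9%, against 33.7% and 36.8% of comparison promoters and 15.4% and 16.8% of all genes. At 30 min the libraries differed, with 25 genes in replicate 1 and 5 in replicate 2, against 18.8% and 8.43% of all genes. At 1 h 32 and 36 genes had a peak (26.1% and 28.2% of all genes), and at 2 h 29 and 39 did (26.9% and 28.1%). The comparison promoters reached 56.5% and 60.9% at 1 h and 58.6% and 60.9% at 2 h, above the 43.3% and 58.2% of the histone genes at 2 h. No histone gene was called in all 8 lists, against 11.8% of comparison promoters. At least 1 list called 52 histone genes, or 77.6%, and none called 15, or 22.4%, near the 80.99% and 19.0% of comparison promoters.

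Requiring both replicates, the count of histone genes with Ikaros was 2 before the drug, 4 after 30 min, 26 after 1 h and 25 after 2 h. These are 2.99%, 5.97%, 38.8% and 37.3%. The shares of comparison promoters were 26.6%, 16.0%, 47.9% and 48.1%, and over all genes they were 12.0% at 0 h, 21.9% at 1 h and 21.9% at 2 h. Among the dense comparison promoters 45.1% were called at 2 h, and among the strongest 10% by H3K27ac, a set added after seeing the data, 72.2%. The gap was wider still against promoters under broad H3K27ac peaks, a comparison also added after seeing the data. Of the 49 histone genes under a peak of at least 5000 bp in both 0 h lists, 36.7% had Ikaros in both 2 h libraries, against 83.2% of 459 other such promoters, and at 0 h the shares were 2.04% and 56.6%. The count in both 2 h libraries rests on replicate 1, without which 39 histone genes would be called. The deficit at 2 h depended on the distance allowed. Within 3 kb of a start 52.2% of histone genes and 52.0% of comparison promoters were called in both 2 h libraries, while peaks containing a start gave 8.96% and 26.7%.

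**Figure D2:**
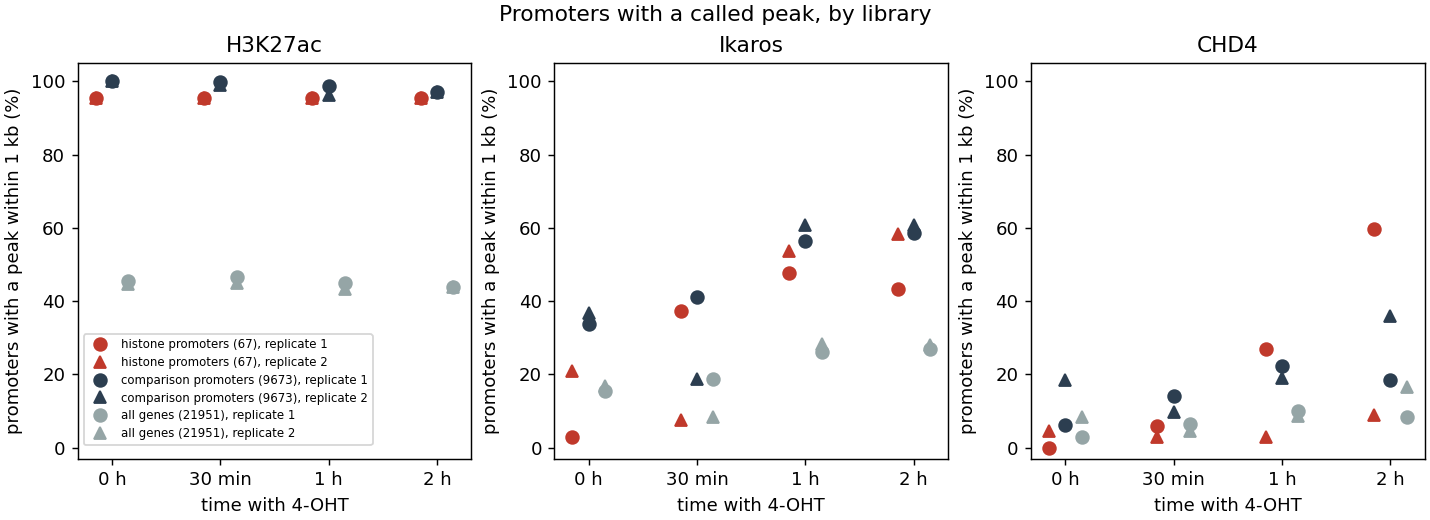
Percent of the 67 histone genes and of the comparison promoters with a peak within 1 kb of a start, for each H3K27ac, Ikaros and CHD4 library by time, beside all genes (circles, replicate 1; triangles, replicate 2). Ikaros goes from 2.99% and 20.9% of histone genes at 0 h to 43.3% and 58.2% at 2 h, and CHD4 splits at 2 h into 59.7% and 8.96%.

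Between 0 h and 2 h 15 histone genes gained Ikaros, with peaks in each 2 h list and none at 0 h. This is 22.4% of the 67 against 6.42% of all genes, 13.9% of the comparison promoters, 12.6% of the dense ones and 15.7% of the strongest 10%. Since few histone genes were called at 0 h, more of them could be gained. Only the 2 called in both 0 h libraries could be lost by the reverse criterion, and 0 were, against 0.755% of comparison promoters. Of the 53 histone genes called in neither 0 h library 15, or 28.3%, were called in both 2 h libraries, against 24.7% of 5432 comparison promoters and 8.04% of 17533 genes in the same position. Single libraries set the count. It would be 23 without 0 h replicate 2 and 27 without 2 h replicate 1. With 2 libraries at each time the smallest two-sided p of an exact permutation test is 0.33, so none was run.

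The strength of Ikaros peaks at histone genes relative to comparison promoters differed between replicates. At 2 h the median rank of the histone genes was 71.0 and 46.7, against 64.4 and 59.4 for bound comparison promoters. The difference was 6.58 points in replicate 1 and −12.7 in replicate 2, or −3.05 ± 13.6 (SD, n = 2), smaller than the spread between replicates. It was −11.7 ± 4.94 with peaks within 500 bp and −13.4 ± 5.97 with the nearest start only (SD, n = 2), lower than the comparison promoters by more than that spread. The peaks rested on few fragments, 11 to 41 at the summits of the genes given here at 2 h, over a local background of 2.12 to 7.52.

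The H4 genes had the highest share of Ikaros calls of the 5 classes at 1 h and 2 h. Histone H4 pairs with H3 in the core of the nucleosome. All 13 H4 genes had an Ikaros peak in at least 1 library. H4 genes with a peak numbered 2 and 5 before the drug, 8 and 4 after 30 min, 10 and 11 after 1 h, and 8 and 11 after 2 h. In both replicates these were 2, 3, 9 and 7 of 13, against 0, 1, 17 and 18 of the 54 other histone genes. The H4 shares at 1 h and 2 h were 69.2% and 53.8%, beside 47.9% and 48.1% of comparison promoters and 21.9% of all genes at either time. Of the 8 H4 genes called in neither 0 h library, 5 were called in both 1 h libraries, 62.5% against 23.7% of comparison promoters and 7.80% of all genes. In both 2 h libraries 2 were called, 25% against 24.7% and 8.04%. When each peak was given to its nearest start only, the H4 counts at 1 h and 2 h stayed at 9 and 7, and those of the other genes fell to 11 and 12. The H4 lead over the comparison promoters was kept in some alternatives and lost in others. With lists cut to equal size the H4 count was 2 of 13 at 1 h, 15.4% against 17.3% of comparison promoters, with 4 of the others. At 2 h it was 3 of 13, above the 17.5% of comparison promoters, with 5 of the others. With peaks that contain a start it was 4 of 13 at 1 h, above 28.0%, and 2 of 13 at 2 h, 15.4% against 26.7%.

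Among the H4 genes called in both 2 h libraries, Hist1h4j and Hist1h4f had the highest mean rank, from 76.4 and 82.8 for both genes in separate peaks. Single libraries put other H4 genes higher. Hist1h4j had no Ikaros peak in either 0 h library. Its ranks were 84.1 and 24.8 at 30 min and 76.5 and 15.6 at 1 h, so the replicates differed widely at both times. At 2 h its summits held 19 and 23 fragments over backgrounds of 2.85 and 2.73, and lay upstream of the start, at −510 and −666 bp. Hist1h4f was called in 7 of 8 libraries, at ranks of 27.1 in 0 h replicate 2, 61.6 and 0.763 at 30 min, and 62.6 and 60.7 at 1 h. Hist1h4a was called in 6 of 8 libraries, at 51.1 in 0 h replicate 2 and 81.0 and 35.4 at 2 h. At the other end, Hist1h4i had ranks of 17.4 and 24.7 at 2 h, with 12 and 16 fragments at the summits of peaks that do not overlap.

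Hist4h4 and Hist2h4, singled out after their values were seen, were the 2 histone genes called for Ikaros in both 0 h libraries. Hist4h4 had ranks of 6.00 and 79.7 at 0 h, 19.6 in 30 min replicate 1, 74.99 and 95.8 at 1 h, and 91.0 and 46.7 at 2 h. Hist2h4 had ranks of 51.6 and 33.2 at 0 h, 64.5 and 72.6 at 30 min, 85.3 in 1 h replicate 1, and 76.4 and 78.1 at 2 h. In the limma fit with imputed values described further on, the 2 h against 0 h log2 difference of the fold was −0.14 ± 0.53 (SE) at Hist4h4 and 0.08 ± 0.62 (SE) at Hist2h4, with adjusted p of 0.946 and 0.974. Few 40-base stretches around them recur in the genome, 0% for Hist4h4 and 1.33% for Hist2h4.

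**Figure D3:**
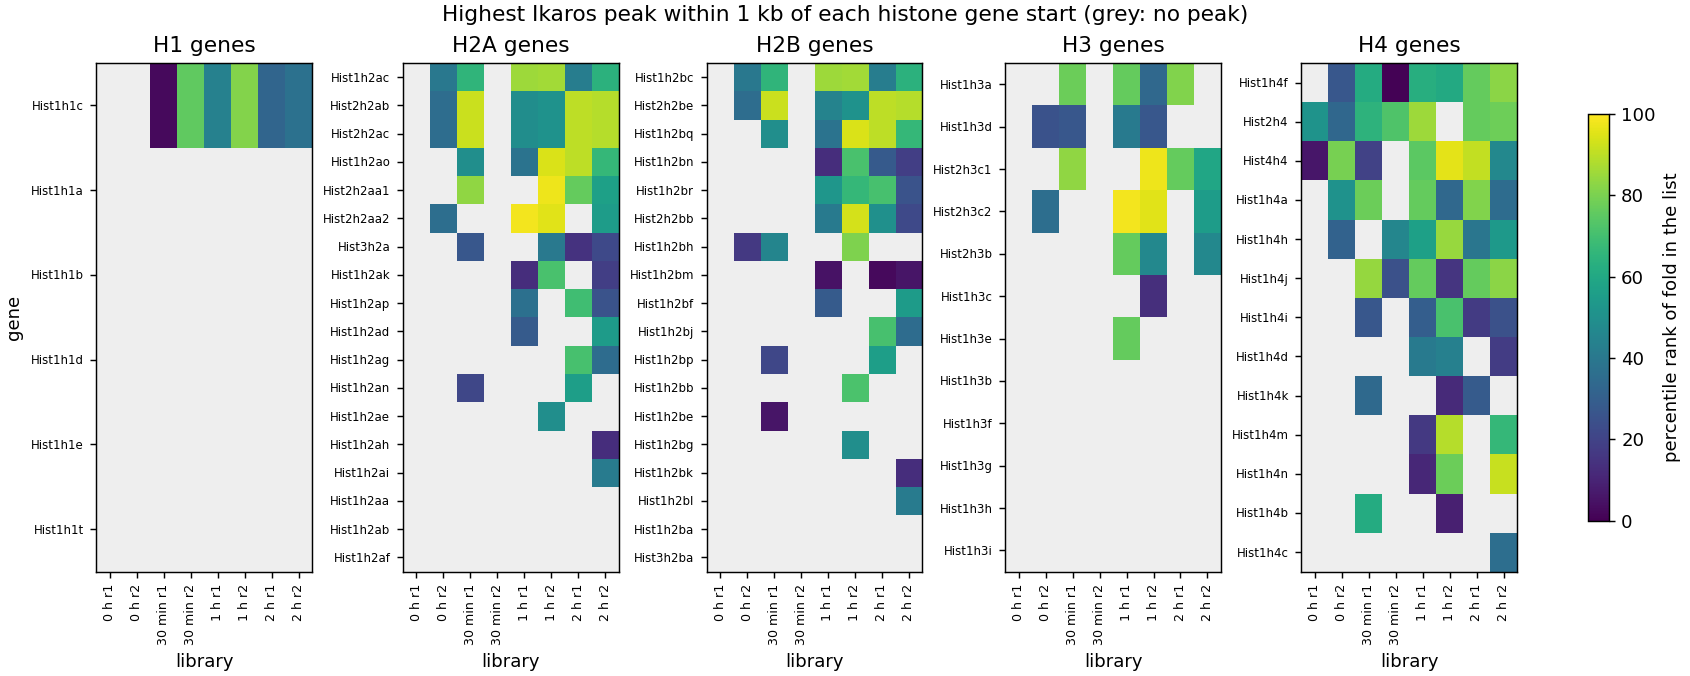
Heat maps of the percentile rank (0 to 100, by fold enrichment within the list) of the strongest Ikaros peak within 1 kb of each histone gene, 1 panel per class, genes in rows and the 8 libraries in columns, with grey where no peak was called. All 13 H4 genes have at least 1 call, of the H1 genes only Hist1h1c has any, and 0 h replicate 1 has a call at 2 genes.

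The H2A and H2B genes, whose products form the dimers on each face of the nucleosome, shared many of their Ikaros peaks. In both 2 h libraries 8 of 18 H2A and 8 of 18 H2B genes were called, and 3 and 7 when each peak was given to its nearest start. The highest mean rank over the 2 h libraries, from 89.9 and 88.9, belonged to 1 peak of the Hist2 cluster near Hist2h2ab, Hist2h2ac and Hist2h2be. Its rank at Hist2h2ab was 35.8 in 0 h replicate 2, 92.1 in 30 min replicate 1, and 48.9 and 51.0 at 1 h. The head-to-head pair Hist1h2ao and Hist1h2bq had no peak at 0 h and ranks of 49.4 in 30 min replicate 1, 38.1 and 94.4 at 1 h, and 89.9 and 66.5 at 2 h. The 2 h ranks came from separate peaks, chr13:21809569-21810223 in replicate 1 and chr13:21810828-21811276 in replicate 2. Another peak of 2 h replicate 2 had its summit 48 bp into Hist1h2bq, beside 44 bp in replicate 1. Of the stretches around these 2 genes 100% and 99.9% recur in the genome, so the peaks could belong to a copy, and the same holds for Hist1h2br (100%), with ranks of 71.0 and 25.6 at 2 h.

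Further gained genes of these classes were Hist2h2aa1, with ranks of 76.4 and 57.0 at 2 h, and the pair Hist1h2ag and Hist1h2bj, with 71.0 and 35.4 from peaks on either side of the pair. Among genes called in both 2 h libraries, the lowest mean ranks of the 2 classes were those of the H2B gene Hist1h2bm, from 2.63 and 5.85, and of the H2A gene Hist3h2a, from 14.6 and 22.1. Hist1h2bm had 15 and 11 fragments at its summits at 2 h, in peaks that do not overlap, close to the fewest at any histone gene at that time.

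Among the H3 genes, 4 of 12 were called in both 1 h libraries but only Hist2h3c1 in both 2 h libraries. Hist2h3c1 had ranks of 83.3 in 30 min replicate 1, 97.6 in 1 h replicate 2, and 76.4 and 59.4 at 2 h, and 79.7% of its surrounding stretches recur in the genome. Of the 6 linker histone genes only Hist1h1c was called in any library. It had no peak at 0 h, and ranks of 2.49 and 75.4 at 30 min, 44.0 and 81.3 at 1 h, and 32.6 and 37.3 at 2 h, where the peaks of the replicates do not overlap. The summits of its strongest peaks lay 724 to 1159 bp into the gene, and not in the promoter stretch printed above.

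Measured from the nearest start, Ikaros summits at histone genes lay further into the gene at 2 h than those at comparison promoters. At 2 h the median summit was 132 and 148 bp downstream of the nearest start, with 29.2% and 29.4% of summits upstream, from 24 and 34 pairs of a peak and a start. At comparison promoters the median was −4 and −11 bp, with 50.8% and 52.8% upstream. Genes other than H4 had medians of 252 and 187 bp, while the H4 medians were −78 and 120 bp and did not keep 1 side between replicates. These medians are over peaks of 1 library each, with no test. Many histone genes have a close neighbour, which limits how far upstream a summit can lie and still be nearest to their start. The dense comparison promoters were not measured in this way, and the part of gene spacing was not tested.

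**Figure D4:**
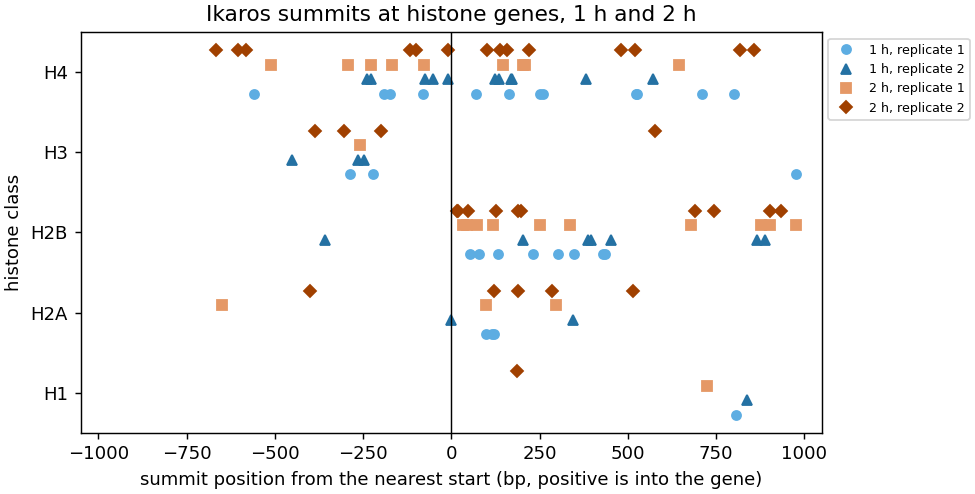
Position of each Ikaros summit relative to the nearest start (bp, positive into the gene) at 1 h and 2 h, by histone class, 1 symbol per library. Summits of H2B genes lie mostly on the positive side, and those of H4 genes on both sides.

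Ikaros calls were set beside the promoter words. The window was the 250 bases before the start, longer than the stretches printed above. Of 22 promoters of histone genes with Ikaros in both 2 h libraries 15 held GGGAA, 68.2%, against 11 of 22, 50%, among those with Ikaros in neither. TATAAA went the other way, with 27.3% against 63.6%, and so did CCAAT, with 72.7% against 95.5%, and ATTTGCAT, with 22.7% against 27.3%. TGGGA was present in 50% of either set. All 12 H4 promoters carry GGGAA in this window and only 3 carry CCAAT, so these counts are not separate from the class. Within 50 bp of the Ikaros summits at 2 h, GGGAA was found in 30.8% and 41.7% of the histone peaks and 35.7% and 38.4% of all peaks of the same lists, so that the histone peaks were lower in 1 library and higher in the other. TGGGA was found in 4 of 26 and 8 of 36 histone peaks, 15.4% and 22.2% against 34.2% and 34.5%, lower in both libraries. The size of the difference varied with the library. At 1 h the shares were 13.3% and 31.0% against 37.8% and 34.8%, and in 30 min replicate 2 it was 2 of 5 histone peaks, 40% against 38.9%.

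The fold of Ikaros peaks could not be tested at the histone genes in the fit that needs a peak in all 8 lists, since 0 of them had one, and that fit called 0 of 1160 genes, with 154 at an unadjusted p under 0.05. With folds as deposited it called 22 of the 1160 at 2 h, 19 of them lower. An alternative fit took genes with a peak in at least 4 of 8 lists and set absent values to the lowest fold of the list. It called 7 of 5027 genes (0.139%) at 2 h against 0 h, all lower at 2 h, and 0 of 25 histone genes. Most 0 h values of the 25 were imputed, since only Hist2h4 and Hist4h4 had a peak in 0 h replicate 1. A gene that passed through the later lists had to lie above these floor values, so differences against 0 h are given only for those 2 genes, which had measured values in each 0 h and 2 h list.

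CHD4 was called at few histone genes in most libraries and at many in 1 of the 2 h libraries. The counts were 0 and 3 of 67 before the drug, 4 and 2 after 30 min, 18 and 2 after 1 h, and 40 and 6 after 2 h. Over all genes the shares were 2.85% and 8.41% at 0 h, 6.36% and 4.46% at 30 min, 10.1% and 8.57% at 1 h, and 8.51% and 16.4% at 2 h. At 2 h the histone shares were thus 59.7% in replicate 1 and 8.96% in replicate 2, while the comparison promoters went the other way, with 18.5% and 36.0%, and so did the lists, with 5523 and 9593 peaks. At 1 h replicate 1 also exceeded replicate 2 at histone genes, 26.9% against 2.99%, while the comparison promoters had 22.3% and 19.0%.

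The 36 histone genes called in 2 h replicate 1 and not in replicate 2 were 53.7% of the 67, against 2.63% of all genes, 5.44% of comparison promoters, 4.18% of the dense ones and 11.4% of the strongest 10%. They came from every class, 4 of H1, 12 of H2A, 10 of H2B, 5 of H3 and 5 of H4. Called in replicate 2 and not in replicate 1 were 2 histone genes, against 22.9% of comparison promoters. At promoters under H3K27ac peaks of at least 5000 bp, 63.3% of 49 histone genes and 9.37% of 459 others were called in 2 h replicate 1 and not in replicate 2. Of these wide promoters, replicate 1 called 65.3% of the histone genes and 58.8% of the others. Replicate 2 called 6.12% and 70.4%. In replicate 1 of both 1 h and 2 h and in neither replicate 2 were 11 histone genes, 16.4% against 1.11% of comparison promoters. With a −log10 q of at least 3 there remained 7 histone genes in 2 h replicate 1, 10.4% against 1.11% of comparison promoters, and 0 in replicate 2, against 3.99%. The median share of recurring stretches was 26.96% at the histone genes called in 2 h replicate 1 and 13.8% at the others. The part of sequence copies in the difference between the replicates was not tested.

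**Figure D5:**
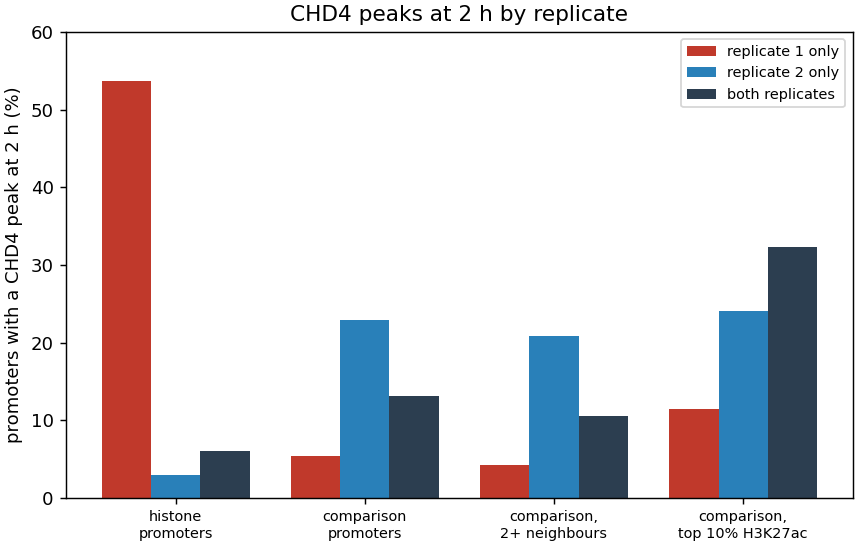
Bars from 0 give the percent of promoters with a CHD4 peak at 2 h in replicate 1 only, in replicate 2 only and in both, for the histone genes and the comparison sets. Replicate 1 only holds 53.7% of the histone genes and 5.44% of comparison promoters, replicate 2 only 2.99% and 22.9%.

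In both 2 h libraries CHD4 was called at 4 histone genes, 5.97% of 67 against 5.88% of all genes and 13.1% of comparison promoters. They were Hist1h2bq and Hist1h2ao, with a shared peak at ranks of 87.2 and 72.4, Hist1h4d at 17.4 and 40.3, and Hist4h4 at 74.8 and 0.719. All but Hist4h4 were gained, that is 3 histone genes, 4.48% against 2.32% of all genes and 5.17% of comparison promoters. The first share lay near the background over all genes, and both lay below those of the comparison promoters. No histone gene could be lost, since 0 of 67 had CHD4 in both 0 h libraries. Hist4h4 was called in 7 of 8 libraries, with ranks of 91.2 in 0 h replicate 2, 2.60 and 35.0 at 30 min and 68.2 and 52.6 at 1 h. The count in both libraries rests on replicate 2, since without it 40 genes would be called at 2 h and 37 gained, while without replicate 1 there would be 6 and 5. The median CHD4 rank of the called histone genes at 2 h was 54.6 and 26.8, against 60.97 and 52.8 for called comparison promoters, a difference of −16.2 ± 13.9 points (SD, n = 2), which in replicate 2 rests on 6 genes. It was −0.881 with peaks within 500 bp, and 7.78, in the other direction, with a fold of at least 3. Ikaros and CHD4 were both called in both 2 h libraries at 3 histone genes, Hist1h2bq, Hist1h2ao and Hist4h4. This is 4.48% of the 67, below the 11.2% of comparison promoters, 9.15% of the dense ones and 29.6% of the strongest 10%. The CHD4 fit by limma had 0 histone genes with a peak in all 8 lists, and called 0 of 172 genes, with 10 at an unadjusted p under 0.05. With folds as deposited it called 10 of the 172 at 2 h, 9 of them higher.

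Genes that act on histone genes or encode other histones were read from 2 lists. All 18 regulators of histone transcription and mRNA processing had H3K27ac in all 8 libraries. Ikaros was called at 12 of them in both 2 h libraries, 5 of them gained, and CHD4 at 2, both gained. The background for these counts was 21.9%, 6.42% and 5.88% of all genes, and 48.1%, 13.9% and 13.1% of comparison promoters, for Ikaros at 2 h, Ikaros gained and CHD4 at 2 h. Hinfp, which activates H4 genes, had Ikaros ranks of 72.3 and 54.7 at 0 h and 97.2 and 98.2 at 2 h, in lists of different length. Npat had Ikaros ranks of 17.7 in 0 h replicate 1 and 53.9 and 22.1 at 2 h, and Slbp had none at 0 h and 73.0 and 89.6 at 2 h. Of 11 replication-independent histone genes, which are expressed also outside S phase, 8 had H3K27ac in all 8 libraries, 5 had Ikaros in both 2 h libraries with 2 gained, and 1 had CHD4 in both.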

How the data were processed

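ChIP-seq of HA-Ikaros, CHD4 and H3K27ac in B3 cells gave 24 peak lists, 2 per target and time. Groups came from the library titles, and the 8 input samples had no list and were not analysed here. By the submitters' processing notes and the study's methods, paired-end reads were mapped to the mm10 build by the authors (Bowtie2 2.4.2), duplicates were flagged (Picard 2.23.7), and peaks were called (MACS2 2.2.7.1), with broad regions for CHD4 (deepTools 3.5.0 is also named). These settings are stated for 0 h, 1 h and 2 h and not for 30 min. That an input was used is known only from the names of the lists, and no filter on mapping quality or blacklist is stated for them.

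Each deposited list holds a display score, which was not used in a comparison, the fold enrichment over local background (a ratio), and 2 significance columns (−log10 p-value, −log10 q-value), all made by the authors' caller. The narrow lists also hold the deposited position of the summit, in bp from the peak start. Without read counts for regions a count model could not be used. Coverage was recovered from the deposited fold and −log10 p of the narrow peaks and was checked on simulated lists (largest error 0.143%). Intervals for counting error were not made, since peaks are calls and not counts.

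All 338060 peaks lay within the chromosomes of the mm10 reference. A gene counted with a peak within 1 kb (1000 bp) of any GENCODE M21 start, and a time counted when both replicates had one. Gained means a peak in each 2 h list and in none at 0 h, and lost is the reverse. For genes with a peak in all 8 lists of a target, the log2 fold of the strongest peak was quantile normalised between libraries and compared between times with limma 3.58.1 (R 4.3.3) over all such genes, with Benjamini-Hochberg adjustment and a threshold of 0.05. On simulated data of 9195 promoters, 200 of them changed, the fit was tested at 3 sizes of change. Other steps used Python 3.11.15, numpy 2.4.6, pandas 2.3.3, scipy 1.17.1 and matplotlib 3.10.9.

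Named genes were the 3 with the highest mean rank for each target, those gained or lost (at most 8 per direction), the testis genes, those without H3K27ac, and the highest and lowest Ikaros rank at 2 h of each class. The members, lists and rules were chosen with earlier results of these data known. Alternatives were other distances (500 bp, 3 kb), the nearest start only, a fold or −log10 q of at least 3, lists of equal size, dense comparison promoters, folds as deposited, peaks in at least 4 of 8 lists, a replicate block and leaving out each library. Peaks that contain a start, the strongest 10% and the at least 5000 bp wide H3K27ac promoters, and each peak counted once were added after seeing the data.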

Additional observations from a re-analysis of the deposited data

How the results depend on the processing

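With the nearest start only, H3K27ac at 0 h gave 21 genes instead of 64, and 1 gene gained at 2 h instead of 0. With lists of equal size, Ikaros at 2 h gave 8 instead of 25 and 7 gained instead of 15, and CHD4 gave 0 instead of 4 and 0 gained instead of 3. With peaks that contain a start, added after seeing the data, Ikaros at 2 h gave 6 with 2 gained, and CHD4 1 with 1 gained. For CHD4 at 2 h a −log10 q of at least 3 gave 0 with 0 gained, a fold of at least 3 gave 2, and 3 kb gave 11 with 10 gained. The H3K27ac rank difference of 25.4 at 0 h was 21.9 against dense promoters, 2.49 against the strongest 10% and 30.7 with each peak counted once, the last 2 added after seeing the data. The CHD4 rank difference of −16.2 at 2 h was 7.78 with a fold of at least 3 and −0.881 within 500 bp, and had no value with a −log10 q of at least 3 in replicate 2. The median H3K27ac log2 difference was −0.41 with folds as deposited. The cause of these moves was not tested. Leaving out 1 library gave 64 to 64 (H3K27ac at 0 h), 29 to 39 (Ikaros at 2 h), 6 to 40 (CHD4 at 2 h, the highest without replicate 2), 15 to 27 (Ikaros gained), 3 to 37 (CHD4 gained), 0 to 0 (H3K27ac gained), rank differences of 23.9 to 26.99 (H3K27ac), −12.7 to 6.58 (Ikaros) and −26.0 to −6.35 (CHD4), and −0.07 to 0.06 for the H3K27ac median. Where 1 library was left at a time, a call needed that library alone, and in limma it was assumed to vary like the other groups. With a replicate block 0 histone genes and 3 of all promoters were called for H3K27ac at 2 h, as without it. Deviations of same-numbered samples correlated by −0.00 to 0.06 for H3K27ac and −0.04 to 0.06 for Ikaros. For CHD4 they correlated by −0.14 to 0.19, with 3 of 6 pairs of times over 0.1, so pairing was neither shown for every pair nor absent from all, and the block left the CHD4 calls at 0 of 172. For H3K27ac the histone genes called by limma stayed at 0 under every alternative run. For Ikaros and CHD4 this count carries no information, since at most 1 histone gene was tested in each fit other than the imputed Ikaros fit with 25.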
